A study of Mus musculus with 4 samples.

Results

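The cells described here are barcodes of mouse long bone that carried RNA of Angptl7 and Slurp1 together with the Cilp genes, and the name proposed for them was Angptl7/Slurp1/Cilp superficial chondrocytes. A barcode was a member when Angptl7 and Slurp1 together gave at least 3 counts, Cilp, Cilp2 and Npy together gave at least 1 count, Col10a1 stayed under 20 counts per 10000 counts of the barcode, Chil1 and Sfrp5 together gave at most 2 counts, and Cdh5 and Ptprc gave 0. The rule found 763 such cells among 24739 barcodes that had passed quality filters, which is 3.08%, with 169 and 190 in the mutant libraries and 206 and 198 in the control libraries. The genes named in the rule chose the cells, so the levels of these genes are given as a description. The cells are called Angptl7/Slurp1/Cilp cells below.

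The series compared Lats2 iECKO mice with controls by droplet sequencing of the 3′ ends of RNA (Chromium V3), with 2 libraries per group, all taken at 12 weeks after birth. The mutants carried floxed Lats2 alleles and the tamoxifen-inducible Cdh5-CreERT2 transgene, whose Cdh5 promoter is active in endothelial cells (ECs), so Lats2, a Hippo pathway kinase that restrains YAP1 and TAZ, was targeted in ECs and not in the cells described here. The controls were littermates, for which the methods describe the same tamoxifen course in animals without Cre and the labels give the treatment as untreated. The metaphysis of femur and tibia was dissected and digested, and cells with lineage markers, CD45 or CD117 were depleted, which removes most blood cells. The libraries of a group are described as biological replicates, and whether each came from a single animal or from several is not given in the sources used here, so p-values measure the spread between these libraries.

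Joint cartilage and its surroundings hold several matrix-producing cell types. The superficial zone that faces the joint makes lubricin, encoded by Prg4, and little of the cartilage collagen encoded by Col2a1, which deeper chondrocytes and the growth plate produce in large amounts. Angptl7 encodes a secreted angiopoietin-like protein of tissues poor in vessels, Slurp1 a small secreted protein of the Ly6 family, Npy a neuropeptide, Cilp and Cilp2 the cartilage intermediate layer proteins, and Sod3 the extracellular superoxide dismutase.

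The libraries held 69636600 and 78953446 (mutant) and 83453507 and 85899079 (control) unique molecular counts (UMIs) in all. The Angptl7/Slurp1/Cilp cells had median depths of 12107 and 10645 UMIs in the mutants and 10383 and 10087.5 in the controls, and between 3067.5 and 3342 genes per cell at the median. Pairs of libraries shared 6 to 16 kept barcodes, against 4.5 to 6.9 expected from their numbers. Doublet calls marked 25 of the 763 cells. RNA of Cre-ERT2 was found in 35.9% and 33.8% of the mutant EC reference cells, and in 0.467% and 0.319% of those of the controls. Lats2 stood at 92.5 and 96.8 counts in each 1000000 counts of the class and library (CPM) in the EC reference of the mutants and at 133 and 119 CPM in that of the controls, and reads outside the floxed part do not check its loss. In the Angptl7/Slurp1/Cilp cells Lats2 stood at 44.2 and 45.8 CPM in the mutants and 42.8 and 46.4 in the controls, a log2 fold change of 0.05 (standard error, SE, 0.141, adjusted p = 0.894 by edgeR).

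In the coordinates of GRCm39, Angptl7 lies at chr4:148579639-148584923 on the minus strand, inside the span of Mtor on the other strand. Slurp1 lies at chr15:74596167-74599892 (minus strand), Npy at chr6:49799026-49806489 (plus), Cilp at chr9:65172200-65187888 (plus), Cilp2 at chr8:70333018-70340337 (minus) and Sod3 at chr5:52521070-52528883 (plus). Counting took in introns. Whether reads of Mtor entered the counts of Angptl7 was not tested.

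The rule's own genes were far higher in these cells than in the other barcodes with Col2a1 at or above 50 per 10000, which serve as the comparison class (1474, 1616, 1215 and 1222 barcodes in mutant 1, mutant 2, control 1 and control 2). Counts of all cells of a class were summed per library and scaled to CPM. Angptl7 stood at 1257, 1301, 1506 and 1530 CPM in the order of libraries just given, and at 3.69 to 8.01 CPM in the comparison class. Slurp1 stood at 610, 646, 569 and 622 CPM, and Cilp at 10318, 8677, 14259 and 12702 CPM. The levels of Slurp1 overlapped between genotypes, while both control libraries were above both mutant libraries for Angptl7 and Cilp. Npy was uneven, with counts in 29.6%, 34.2%, 42.7% and 49.0% of the cells, beside 0.233% to 1.24% of EC reference cells, whose median depth was 6746 to 8306 UMIs. Sod3, the label marker that the rule did not use, was found in 88.8% to 96.5% of the cells, beside 1.75% to 6.07% of EC reference cells. Cells just inside the threshold, with 3 to under 4 counts of Angptl7 and Slurp1, numbered 16, 16, 11 and 11, and their median Cilp was 43.8, 19.4, 197 and 158 per 10000. Barcodes just outside it, with 2 to under 3 counts, numbered 17, 21, 13 and 16, and their median Cilp was 51.0, 16.8, 180 and 119 per 10000. The rule used Cilp itself. Dcn, which it did not use, had medians of 141, 168, 239 and 221 per 10000 just inside and 159, 84.3, 120 and 158 just outside. Prg4 had 76.4, 22.2, 444 and 102 inside and 102, 34.4, 286 and 127 outside. How alike the cells on both sides are was not tested.

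The markers split between those of lubricated joint surfaces, those of cartilage and those of fibroblasts, and no single cell type held them all. Prg4 stood at 14135, 12354, 20660 and 16721 CPM, Creb5, a transcription factor of the joint surface that acts on Prg4, at 547, 621, 872 and 691 CPM, and Clu, which encodes the secreted chaperone clusterin, at 9905 to 10999 CPM. Of 8 genes of the superficial-zone list that reached 50 CPM in every library of either class, 5 (Tppp3, Abi3bp, Clu, Prg4 and Creb5) were at least 4-fold higher in the Angptl7/Slurp1/Cilp cells in all 4 libraries. Over all 2995 genes of that level, 3.67% were at least 4-fold higher in all libraries and 2.80% at least 4-fold lower. No test was made of these differences, because the rule had set these classes apart. Such markers were not confined to these cells. The summed superficial-zone list was 40525 to 51357 CPM in them and 2816 to 6659 CPM in the Col2a1-high class. It was 18395 to 32790 CPM in a fibroblast reference chosen by Dpt, Clec3b and Pi16. Other barcodes with Prg4 at 50 or more per 10000 numbered 1219.

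Cartilage matrix RNA was present, with low Col2a1. Comp, a pentameric matrix protein of cartilage and tendon, stood at 12452, 12678, 10018 and 10193 CPM and was 1.43- to 1.73-fold higher than in the Col2a1-high class. Chad, which encodes chondroadherin, was 1.40- to 1.62-fold higher. Acan, the core protein of aggrecan, stood at 1196, 985, 1286 and 1101 CPM, 2.32- to 3.18-fold lower than in that class, and Sox9, the chondrocyte transcription factor, was 1.30- to 2.07-fold lower. Of the 16 cartilage markers that could be described, Col2a1 left out because it chose the comparison class, 10 were at least 4-fold lower in all libraries and 0 at least 4-fold higher. The Col2a1 level per cell had medians of 2.95, 2.48, 2.53 and 2.39 per 10000, against 168, 173, 315 and 322 in the comparison class and 0.754 to 1.03 in EC reference cells. Of the 763 cells, 159 had no Col2a1 count and 82 (10.7%) had 50 or more per 10000, and 36 lay between 40 and 60.

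Fibroblast markers were mixed. Dcn, the small proteoglycan decorin, stood at 33768 to 39309 CPM and Igfbp6 at 1184 to 1373 CPM, both far above the Col2a1-high class and both also high in the 309 fibroblast reference barcodes, which were chosen by Dpt, Clec3b and Pi16. Of the 7 genes of the fibroblast list that could be described, 4 were at least 4-fold higher than in the Col2a1-high class in all libraries and 0 at least 4-fold lower. The defining genes of the reference differed: Dpt stood at 2.38 to 16.8 CPM, against 497 to 737 CPM in the reference, and Pi16 at 0 to 0.401 CPM. Clec3b, which encodes tetranectin, stood at 115, 126, 70.9 and 52.4 CPM, against 653 to 871 CPM in the reference and 0.588 to 1.48 CPM in the Col2a1-high class. The study's annotation key lists Slurp1, Igfbp6 and Sod3 among its markers of fibroblasts. For the fibroblasts that it places under chondrocytes it lists Prg4 and Thbs4 beside Igfbp6 and Slurp1. It gives chondrocytes as Prg4-positive and Slurp1-negative, so the name chondrocyte is not settled by these markers. Markers of other cell types were at mixed levels. The summed level of 6 EC genes was 4.13 to 13.1 CPM, against 4685 to 4932 CPM in the EC reference, and Cdh5 was at 0 by the rule. Hematopoietic genes other than hemoglobin summed to 1.24, 1.20, 7.50 and 2.38 CPM. The 4 Schwann cell genes summed to 262 to 342 CPM (9.75 to 24.5 CPM in the EC reference), the 8 tendon and ligament genes to 2813 and 2480 CPM in the mutants and 1756 and 1865 CPM in the controls, the 6 genes of bone marrow stromal cells to 699 to 1004 CPM and the 7 osteoblast genes to 106, 563, 598 and 1124 CPM. In the Col2a1-high class these lists summed to 191 to 222, 1780 to 2134, 524 to 631 and 2457 to 8515 CPM. Free RNA, estimated from empty droplets, came to 128, 109, 470 and 452 CPM for the osteoblast list in the Angptl7/Slurp1/Cilp cells. The osteoblast sum of mutant 1 was thus below its free RNA estimate.

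**Figure D1:**
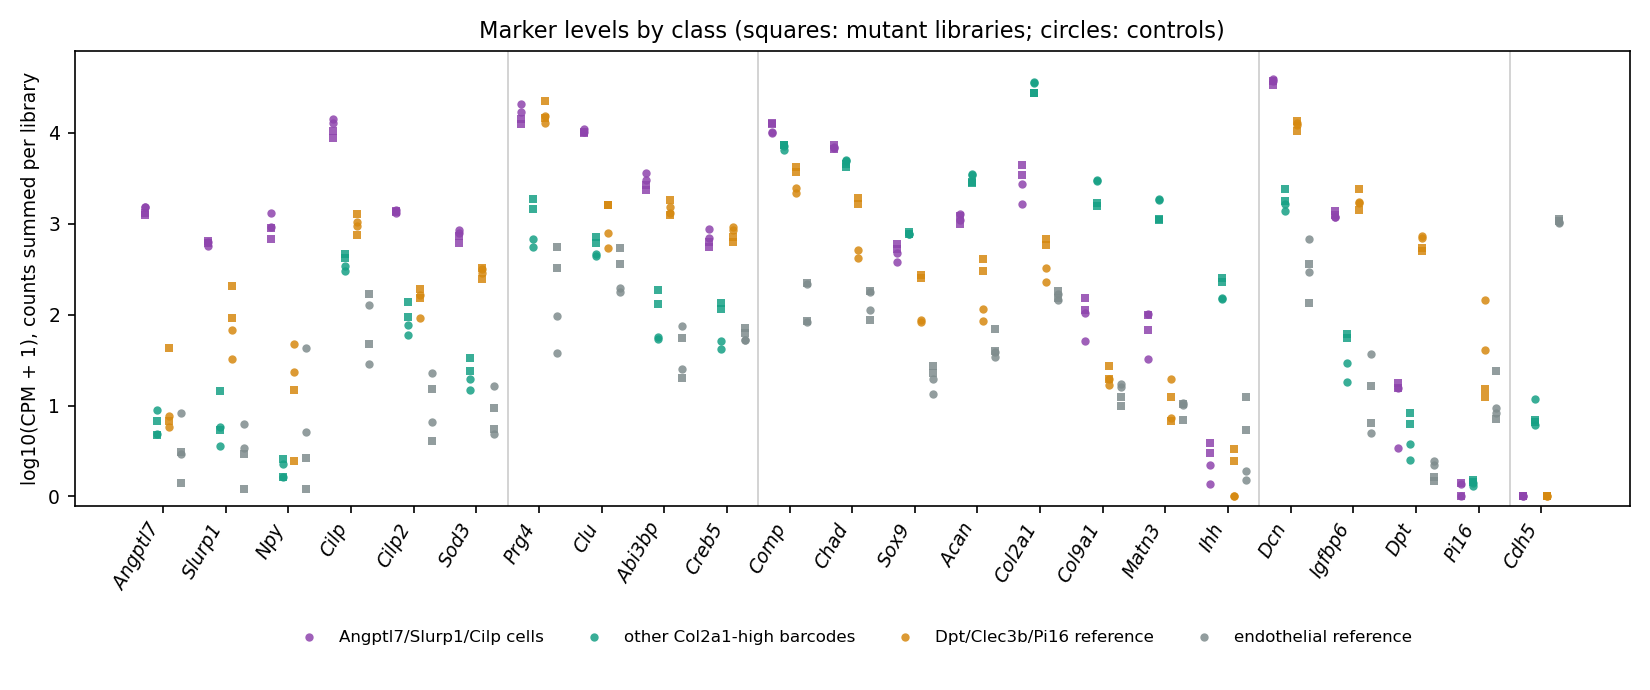
Levels of marker genes in 4 classes of barcodes, as log10(CPM + 1) of counts summed per library (squares, mutant libraries; circles, control libraries). The Angptl7/Slurp1/Cilp cells share high Prg4 and Dcn with the Dpt/Clec3b/Pi16 reference, share Comp and Chad with the Col2a1-high barcodes, and stand apart in Angptl7, Slurp1, Npy, Cilp and Cilp2, which served in the rule.

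The following are some of the 20 genes of largest fold over the Col2a1-high class, ranked by the library of smallest fold, with rule genes left out. Tppp3, a microtubule-binding protein gene also known from tendon sheath cells, was 43.3- to 120-fold higher. Nox4, an NADPH oxidase, was at least 42.4-fold higher in each library at 130, 183, 237 and 249 CPM, and Tnxb, the gene of tenascin-X, stood at 260.3 to 331 CPM against 2.22 to 6.58 CPM. The protease gene Htra4 was 35.6- to 93.2-fold higher, with counts in 71.0% to 79.1% of the cells and in 0.311% to 2.94% of EC reference cells. Vcan, which encodes the large proteoglycan versican, was 26.4- to 131-fold higher, Igfbp5 was 22.4- to 32.1-fold higher, and Bmpr1b, a BMP receptor with a role in digit and joint cartilage, 20.1- to 41.6-fold higher. Outside those 20, Has1, a hyaluronan synthase of the superficial and lubricating list, was 14.2- to 113-fold higher at 84.2, 91.8, 88.9 and 152 CPM.

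The following are some of the 15 genes of largest fold in the other direction. Ihh, the signal of prehypertrophic chondrocytes, stood at 2.89, 2.00, 0.375 and 1.19 CPM, against 252, 225, 146 and 153 CPM in the Col2a1-high class. Hpgd, which breaks down prostaglandins, was 16.5- to 40.8-fold lower, Alpl, the alkaline phosphatase of mineralizing cells, 15.6- to 31.6-fold lower, Matn3, a matrilin, 11.1- to 58.7-fold lower, and Col9a1, a chain of type IX collagen, 10.2- to 58.6-fold lower. Wnt5b was 9.64- to 14.6-fold lower. Col10a1 had been limited by the rule and is left out of this comparison.

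The cells were not uniform, and most carried RNA of both naming genes. In 398 cells (52.2%) both were counted, in 194 (25.4%) Angptl7 without a Slurp1 count, and in 171 (22.4%) Slurp1 without an Angptl7 count. Both genes were counted in 49.7% and 45.8% of the mutant cells and 56.8% and 55.6% of the control cells, and Slurp1 alone in 24.9% and 25.8% against 19.9% and 19.7%, given as a description because the rule used both genes. The part of this make-up in the genotype results below was not tested apart from the splits by a Slurp1 count. The cells with Angptl7 only were shallower, at a median of 7905.5 UMIs against 11750.5 with both and 12068 with Slurp1 only, so depth moved with the split, and its part in it was not tested.

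Several genes that the split did not use differed between the kinds, and Prg4 and Acan held their order in each library. Prg4 had a mean of 39.8 per 10000 in cells with Angptl7 only, 140 with both and 262 with Slurp1 only. In the cells with Slurp1 only Prg4 was 234, 178, 375 and 281 per 10000, and in those with Angptl7 only it was 41.3, 28.7, 45.5 and 45.3, so the ranges of libraries did not overlap. Acan followed the same order of kinds, at 3.53, 9.25 and 15.5 per 10000. Cilp2 ran the other way, at 22.3, 16.2 and 7.95 per 10000, and so did Fmod, the gene of the collagen-binding proteoglycan fibromodulin, at 33.8, 14.4 and 6.55. Thbs4, a thrombospondin of tendon and ligament, was highest in cells with Angptl7 only, at 14.6 per 10000 against 1.90 and 1.03. Dcn was lowest in cells with Slurp1 only, at 182 per 10000 against 384 and 464, and Npy was highest in cells with both, at 13.3 per 10000 against 3.36 and 3.27. Sox9 stood at 2.33, 3.70 and 6.83 per 10000 over all libraries, and in mutant 1 the cells with both did not exceed those with Angptl7 only. Cells with Col2a1 at 50 or more per 10000 made up 6.70%, 9.05% and 19.3% of the kinds, and doublet calls 2.58%, 2.51% and 5.85%. No test was run on these differences, because both naming genes belong to the rule.

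**Figure D2:**
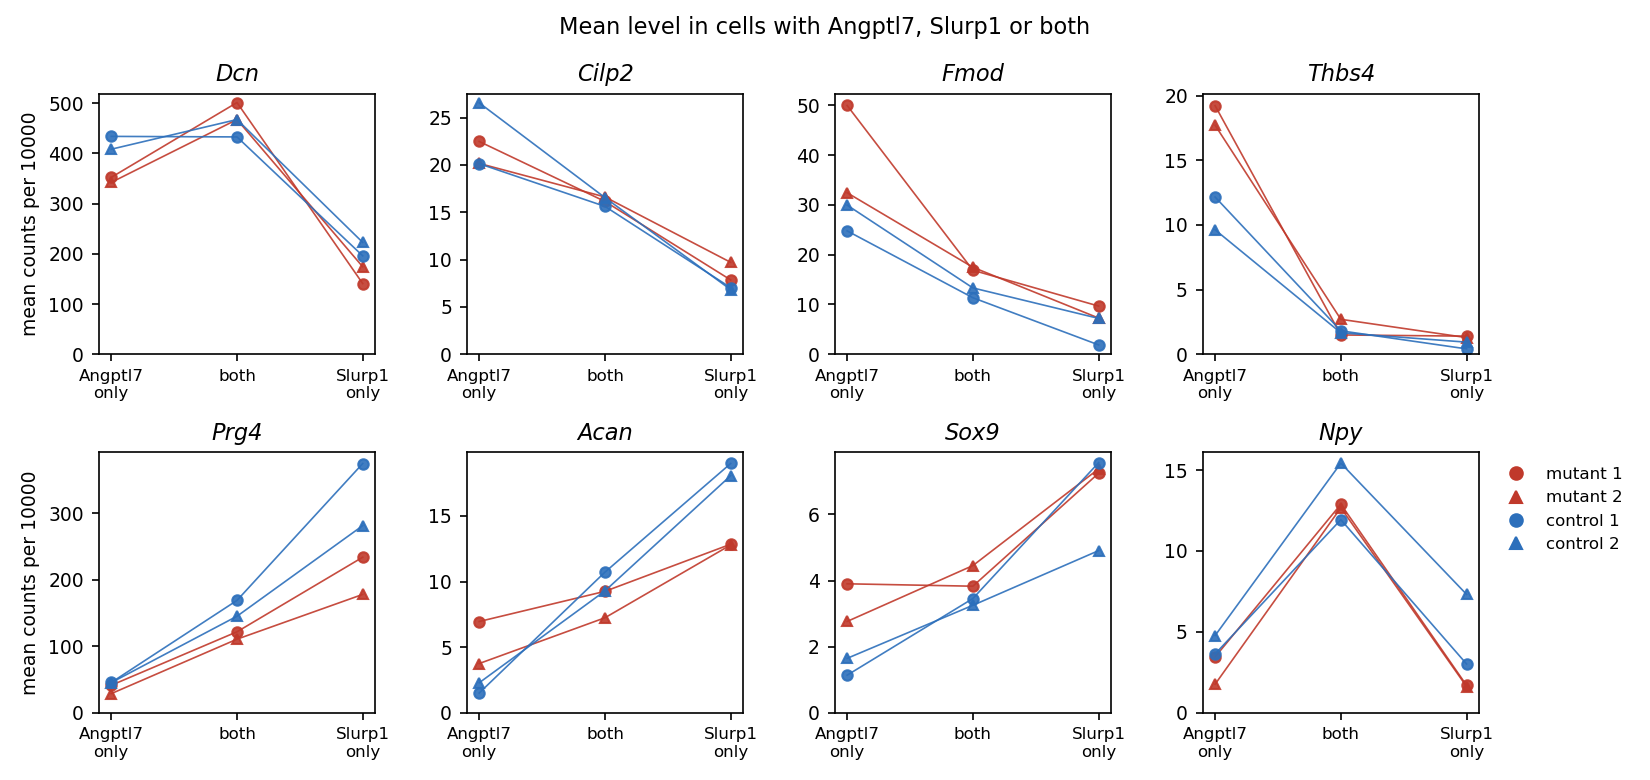
Mean counts per 10000 of 8 genes in cells with Angptl7 only, with both genes and with Slurp1 only; each line is 1 library (red, mutant; blue, control; circles, replicate 1; triangles, replicate 2). Prg4 and Acan climb from left to right in all 4 libraries, Cilp2, Fmod and Thbs4 descend, Dcn is lowest at the right and Npy peaks in the middle.

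The share of Angptl7/Slurp1/Cilp cells was asked for next, first among all kept barcodes and then among cartilage-type barcodes. They were 3.29% (95% Clopper-Pearson interval 2.82 to 3.82) and 3.22% (2.79 to 3.70) of all kept barcodes in the mutants, and 3.0% (2.61 to 3.43) and 2.90% (2.51 to 3.32) in the controls. The mean difference was 0.309 percentage points, within these counting intervals, with p = 0.33 in a 2-sided exact permutation test, the smallest value that 2 libraries against 2 allow. It turned to -0.143 points when barcodes of at least 3000 UMIs were thinned to 3000 UMIs, which left out 520, 621, 683 and 626 kept barcodes. Intervals cover counting error only.

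Among these cells plus the other Col2a1-high barcodes, the share was lower in the mutants. It was 10.3% (8.86 to 11.9) and 10.5% (9.14 to 12.0) in the mutants and 14.5% (12.7 to 16.4) and 13.9% (12.2 to 15.9) in the controls, a mean difference of -3.82 percentage points (exact permutation p = 0.33). The other Col2a1-high barcodes were 28.7% and 27.4% of kept barcodes in the mutants and 17.7% and 17.9% in the controls, so the denominator of this share moved with genotype while the numbers of Angptl7/Slurp1/Cilp cells per kept barcode overlapped in their intervals. Dissociation, depletion and the filters set which cells enter a library, and their part in the shares was not tested.

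More of the mutant cells carried much Col2a1. The level was 50 or more per 10000 in 13.6% (8.83 to 19.7) and 17.4% (12.3 to 23.5) of the mutant cells and in 6.80% (3.77 to 11.1) and 6.06% (3.17 to 10.3) of the control cells. The difference of 9.06 points had the same exact permutation p of 0.33 and was 8.27 points at equal depth and 8.86 points without the cells called doublets. The Col2a1-high members were deeper, at median depths of 13020 to 22208 UMIs against 9998.5 to 11320 for the others, and doublet calls marked 17.4%, 6.06%, 28.6% and 8.33% of them, against 1.27% to 2.74% of the others.

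**Figure D3:**
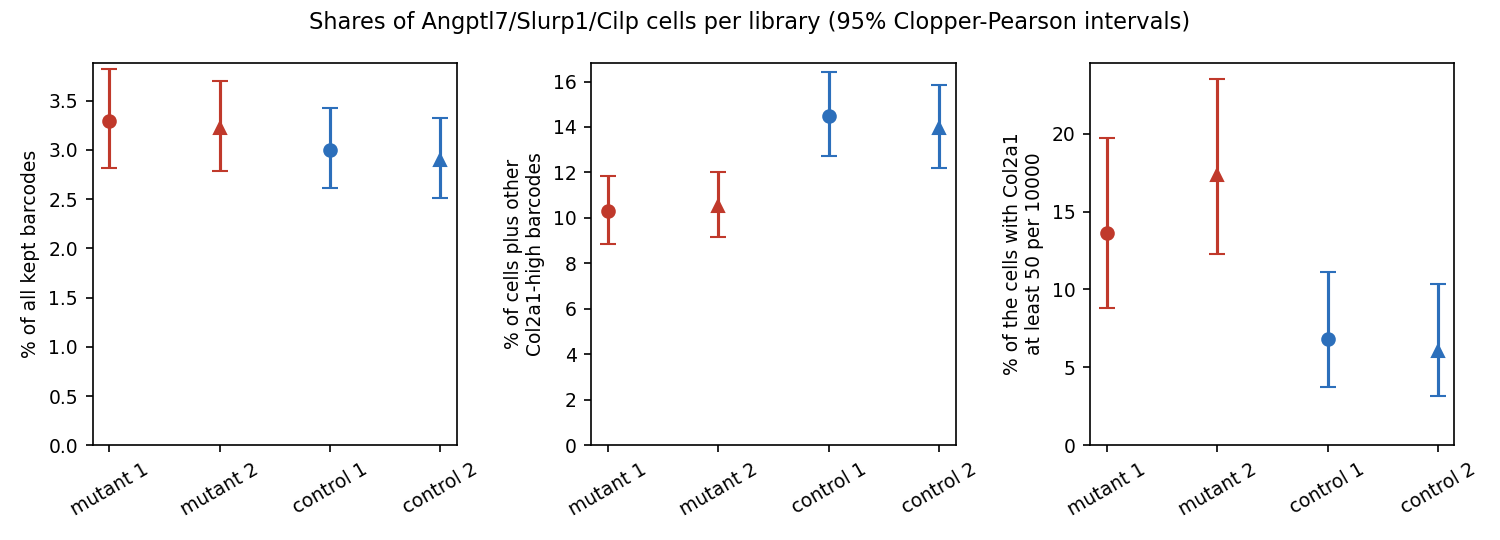
Shares in percent with 95% Clopper-Pearson intervals (bars) for each library, all axes starting at 0: the cells among all kept barcodes, among themselves plus other Col2a1-high barcodes, and the share of the cells with Col2a1 at 50 or more per 10000. The intervals of mutants and controls overlap in the left panel, while in the middle panel the mutant shares of 10.3% and 10.5% lie below the control shares of 14.5% and 13.9%.

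The comparison of genotypes asked what changed in these cells when Lats2 was deleted in ECs. The falls included the metallothioneins Mt1 and Mt2, small proteins that bind zinc and copper, and the chemokine Cxcl12. The rises were led in size by Myoc, which encodes the secreted protein myocilin, the secreted Wnt antagonist Frzb, the hemoglobin gene Hbb-bs, and Tgfb2, a TGF-beta ligand. Summed counts per library were tested with edgeR's quasi-likelihood test over 6470 genes that had counts in 20% or more of the cells from one genotype, with Benjamini-Hochberg adjustment. With an adjusted p up to 0.05 and a 2-fold change or more, 31 genes rose (0.479% of the tested) and 12 fell (0.185%), and without the limit on size 177 rose (2.74%) and 91 fell (1.41%). The counts at 2-fold were 55 and 21 without control 1, the 12 falls became 20 without mutant 1 or without mutant 2, and DESeq2 gave 12 and 6.

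Mt1 stood at 475 and 401 CPM in the mutants and 1229 and 1100 CPM in the controls. Mt2 stood at 219 and 203 CPM in the mutants and 661 and 631 CPM in the controls. Both mutant libraries were well below both controls for each gene. Mt1 fell by 1.37 on the log2 scale (SE 0.100, edgeR adjusted p = 4.63e-06) and Mt2 by 1.57 (SE 0.0918, adjusted p = 5.73e-07). Counts of Mt1 were found in 74.0% and 68.9% of the mutant cells and 81.6% and 78.8% of the control cells. In empty droplets Mt1 went the other way, at 380 and 349 CPM in the mutants and 147 and 144 in the controls, and free RNA was estimated to bring means of 4.38 and 2.54 CPM to the cells.

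The fall was seen in cells with little Col2a1, and in the other Col2a1-high barcodes both genes rose. In members under 50 per 10000 of Col2a1, Mt1 was 533 and 473 CPM in the mutants and 1376 and 1183 CPM in the controls. In the 82 members above it, Mt1 was 218 and 206 CPM in the mutants and 104 and 43.6 CPM in the controls. The log2 fold change of 1.48 did not pass (adjusted p = 0.113), and that of Mt2 was 0.30 (adjusted p = 0.920). In the other Col2a1-high barcodes Mt1 was 236 and 252 CPM against 54.5 and 65.4 CPM and rose by 2.12 (SE 0.0792, adjusted p = 1.11e-07), and Mt2 rose by 1.17 (SE 0.0653, adjusted p = 9.51e-07). The difference between the classes was tested as an interaction with the library as a block, and it was -3.48 for Mt1 (SE 0.161, adjusted p = 3.13e-06) and -2.74 for Mt2 (SE 0.116, adjusted p = 1.97e-06). In the fibroblast reference, whose class was not tested, Mt1 stood at 874 and 685 CPM in the mutants and 962 and 866 in the controls.

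Mt1 (chr8:94905710-94906955 in GRCm39, plus strand) and Mt2 (chr8:94898819-94900207, plus strand) are neighbours. Metallothionein promoters are known for metal response elements, where the zinc-sensing factor MTF1 binds. Their promoters from RefSeq (GRCm38.p6, 250 bases before to 50 bases after the gene start) are shown because these genes moved together. Capitals mark TGCACNC or TGCGCNC, the core of that element, on either strand.
Mt2, chr8:94172368-94172667, plus strand: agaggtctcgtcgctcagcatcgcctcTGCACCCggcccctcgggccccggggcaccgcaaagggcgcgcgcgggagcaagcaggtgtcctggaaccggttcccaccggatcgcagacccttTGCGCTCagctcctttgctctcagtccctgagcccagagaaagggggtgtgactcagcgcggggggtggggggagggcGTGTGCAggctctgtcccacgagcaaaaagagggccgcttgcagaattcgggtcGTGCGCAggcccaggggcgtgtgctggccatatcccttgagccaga
Mt1, chr8:94178839-94179138, plus strand: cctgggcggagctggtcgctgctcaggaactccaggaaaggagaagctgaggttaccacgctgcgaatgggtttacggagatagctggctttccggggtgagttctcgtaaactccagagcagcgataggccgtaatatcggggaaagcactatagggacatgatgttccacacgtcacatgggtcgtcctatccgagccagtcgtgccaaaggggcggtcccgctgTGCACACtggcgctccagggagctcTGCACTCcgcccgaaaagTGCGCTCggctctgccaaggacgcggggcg
The Mt2 window held 4 matches and the Mt1 window 3. Of the 32851 promoters of the same length, 25.7% held any match, 0.517% held 4 or more and 1.97% held 3 or more. A match describes the letters only.

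Other secreted or matrix-related genes fell beside them. Cxcl12, the chemokine of bone marrow stroma, stood at 52.8 and 30.1 CPM in the mutants and 161 and 269 CPM in the controls, a fall of 2.33 (SE 0.246, edgeR adjusted p = 1.96e-04). Free RNA was estimated to bring means of 15.5 CPM in the mutants and 54.7 CPM in the controls of this, and after subtracting it the fold change was -2.60. Of the 3 tested genes of the bone marrow stromal list 2 fell and Wif1 rose, and the other fall was Lepr, the leptin receptor gene, at -0.52 (adjusted p = 0.0404), which was -0.22 without called doublets (adjusted p = 0.410) and did not pass in DESeq2 (adjusted p = 0.225). The part of such cells in the fall of Cxcl12 was not tested. Pcsk5, a proprotein convertase that cleaves secreted precursors, stood at 315 and 268 against 554 and 856 CPM and fell by 1.24 (SE 0.163, adjusted p = 0.00118). Col8a1, a short-chain collagen, stood at 115 and 66.1 against 168 and 206 CPM and fell by 1.01 (SE 0.185, adjusted p = 0.00865). In each of these genes both mutant libraries lay below both controls, with the widest spread between replicates in Cxcl12 and Col8a1. Col8a1 did not pass in DESeq2 (adjusted p = 0.220).

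Tnfaip6, a hyaluronan-binding protein induced by inflammation, stood at 101 and 139 CPM in the mutants and 326 and 199 CPM in the controls. It fell by 1.08 (SE 0.191, edgeR adjusted p = 0.00707), and it did not pass in DESeq2 (adjusted p = 0.142). Its fold change was -0.69 without control 1, under 2-fold, and -1.39 without control 2. In the cells with no Slurp1 count its value was 1.45, where the test did not pass (edgeR adjusted p = 0.203). In the other Col2a1-high barcodes it stood at 45.7 and 31.0 against 10.8 and 6.41 CPM, and the interaction was -3.31 (SE 0.266, adjusted p = 6.20e-05). The heat shock gene Hspa1b stood at 74.4 and 87.8 against 175 and 166 CPM and fell by 1.03 (SE 0.106, adjusted p = 1.66e-04), and it fell more, by 1.79, in the other Col2a1-high barcodes. Lifr, a cytokine receptor subunit, was called at -1.39 (adjusted p = 0.0431), but 126 CPM in control 2 stood above 30.5, 32.9 and 46.1 CPM in the other libraries. Without control 2 its fold change was -0.49, and without the cells called doublets it was 0.14, and it did not pass in DESeq2 (adjusted p = 0.424). Limch1 was called at -1.02 (adjusted p = 0.00695) and was -0.53 without called doublets (adjusted p = 0.0537).

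Myoc stood at 321 and 330 CPM in the mutants and 86.7 and 99.2 CPM in the controls. It rose by 1.85 (SE 0.105, edgeR adjusted p = 5.73e-07) and was counted in 22.5% and 23.2% of the mutant cells and 11.2% and 14.1% of the control cells. Myoc thus met the limit of 20% of cells through the mutants only, and it was not tested when thinned. Its fold change was 2.10 in cells under the Col2a1 limit. It did not pass in cells above that limit (0.47, edgeR adjusted p = 0.889) or with no Slurp1 count (1.59, adjusted p = 0.228). Frzb stood at 71.8 and 121 against 22.1 and 35.3 CPM and rose by 1.80 (SE 0.245, adjusted p = 0.00141). Like Myoc, Frzb met the limit of 20% of cells through the mutants only. Under that limit Frzb was not tested without mutant 2, in cells under the Col2a1 limit, in cells with no Slurp1 count or when thinned. It did not pass with at least 5 counts of Angptl7 and Slurp1 (1.65, edgeR adjusted p = 0.0794), and it was 2.17 in cells above the Col2a1 limit. The replicates of each genotype were close for Myoc, and for Frzb the mutant libraries were further apart, still above both controls. Frzb and Itm2a, a membrane protein of chondrocyte development that rose by 1.44 (157 and 146 against 57.8 and 57.2 CPM, adjusted p = 4.63e-06), rose in the other Col2a1-high barcodes too, by 2.02 and 1.21.

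Tgfb2 stood at 80.8 and 41.5 CPM in the mutants and 15.8 and 21.4 CPM in the controls, a rise of 1.76 (SE 0.284, edgeR adjusted p = 0.00433). It was counted in 24.2% of the cells of mutant 2 and in fewer of those of mutant 1, and in 11.2% and 17.2% of the control cells. Tgfb2 thus also met the limit of 20% of cells through the mutants only. It fell under the limit of 20% and was not tested without mutant 2, without called doublets, with at least 2 or at least 5 counts of Angptl7 and Slurp1, in cells with a Slurp1 count, in cells under the Col2a1 limit or when thinned. Where it was tested, its fold change was 0.66 in cells above the Col2a1 limit (adjusted p = 0.840) and 1.45 in cells with no Slurp1 count (adjusted p = 0.0803), and DESeq2 gave it no adjusted p. In the other Col2a1-high barcodes it stood at 125, 125, 123 and 119 CPM (log2 change 0.15), and the interaction was 1.61 (SE 0.311, adjusted p = 0.00733). Sparcl1, a secreted relative of osteonectin, stood at 45.8 and 55.7 against 14.3 and 24.6 CPM and rose by 1.43 (adjusted p = 0.00264). Sparcl1 too met the limit of 20% of cells through the mutants only. It was not tested without mutant 2, in cells under the Col2a1 limit or when thinned, and DESeq2 gave it no adjusted p. Sparcl1 did not pass with at least 5 counts of Angptl7 and Slurp1 (1.39, edgeR adjusted p = 0.0768). Nor did it pass in cells above the Col2a1 limit (1.10, adjusted p = 0.689) or with no Slurp1 count (2.34, adjusted p = 0.169). Ibsp, the bone sialoprotein gene, stood at 811 and 1410 against 385 and 520 CPM and rose by 1.34 (adjusted p = 0.00264), and in cells under the Col2a1 limit by 0.87, and it did not pass in DESeq2 (adjusted p = 0.0811). Omd, the gene of the small proteoglycan osteomodulin, was called at 1.41 (adjusted p = 0.0293), with 715 CPM in mutant 2 beside 247 in mutant 1, was 0.44 without mutant 2, and did not pass in DESeq2 (adjusted p = 0.440). Col4a1, a basement membrane collagen, was called at 1.33 (adjusted p = 0.00143) and was 0.06 without called doublets (adjusted p = 0.921).

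Mia and Cnmd are secreted products of chondrocytes, and Cnmd encodes chondromodulin, an inhibitor of vessel growth. Mia stood at 202 and 332 CPM in the mutants and 133 and 69.9 CPM in the controls, and rose by 1.44 (SE 0.241, edgeR adjusted p = 0.00543). Cnmd stood at 179 and 271 against 128 and 71.0 CPM, and rose by 1.22 (SE 0.216, adjusted p = 0.00734). In the other Col2a1-high barcodes they fell by 0.67 and 0.42, with interactions of 2.13 (adjusted p = 0.00168) and 1.66 (adjusted p = 0.00265). In cells under the Col2a1 limit Cnmd stood at 76.8 and 84.4 against 17.8 and 16.7 CPM, and in cells above it at 632 and 778 against 969 and 763 CPM. Neither gene passed in DESeq2 (adjusted p = 0.172 and 0.212) or with at least 5 counts of Angptl7 and Slurp1 (0.205 and 0.366). In cells with a Slurp1 count the edgeR adjusted p was 0.0533 and 0.0587. Col10a1, which the rule limited, is counted among the 31 rises and not read.

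The hemoglobin genes were among the rises and followed the empty droplets. Hbb-bs stood at 277 and 357 CPM in the mutants and 98.3 and 92.2 CPM in the controls (log2 change 1.77), and Hba-a2, Hbb-bt and Hba-a1 were at 1.40, 1.31 and 1.15. All hemoglobin RNA made up 43825 and 45570 CPM of the empty droplets of the mutants and 10365 and 11480 CPM of those of the controls. If all hemoglobin RNA in the cells was free RNA, then free RNA made up 1.08% and 1.33% of their counts in the mutants and 1.80% and 1.69% in the controls. Of the 31 genes that rose, 29 were also higher in the mutant empty droplets, and of the 12 that fell, 9 were also lower there, Mt1, Mt2 and Tnfaip6 being the exceptions. Of all 6470 genes tested, 40.7% were higher in the mutant empty droplets. Empty droplets hold RNA released by the same tissue, and its part in the calls was tested only by subtraction. After it 30 genes rose and 11 fell, of which 39 were among the 43 before it. Hbb-bs and Lifr no longer passed (edgeR adjusted p = 0.0570 and 0.0692), and Hba-a1 and Hbb-bt were no longer tested. Hba-a2 still passed, at 3.32 (edgeR adjusted p = 0.0234).

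**Figure D4:**
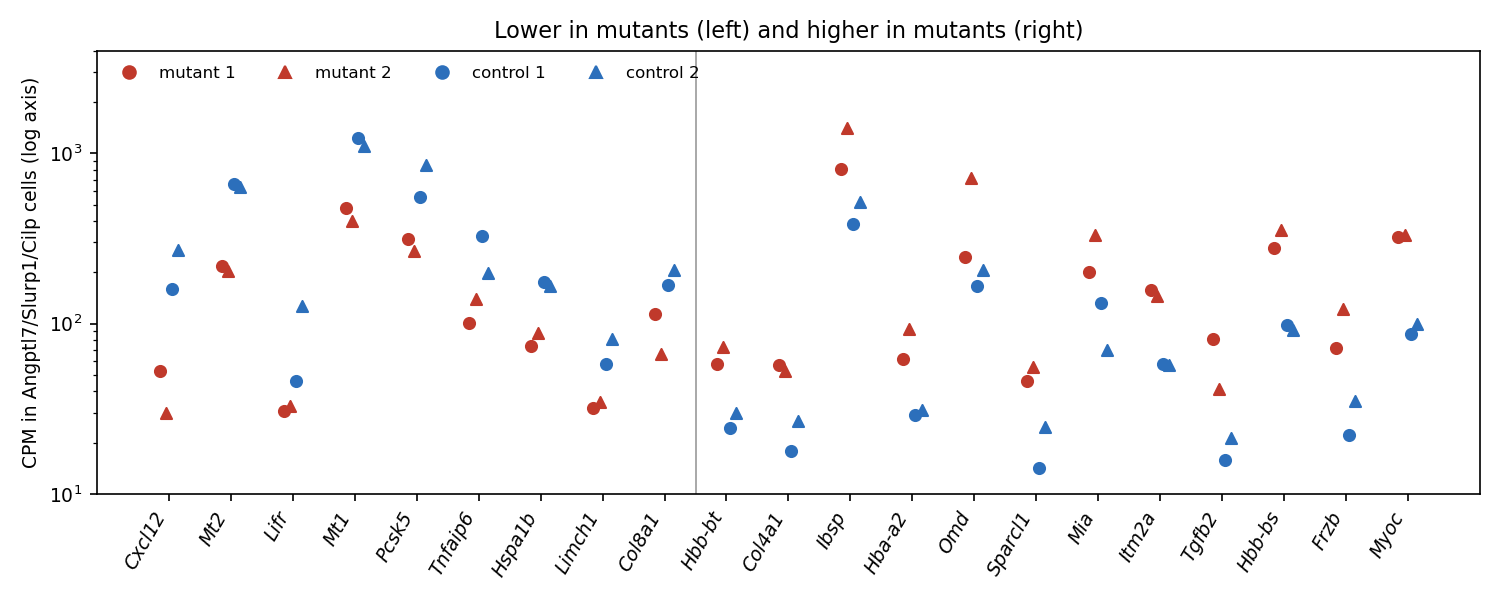
CPM of the genes called and named by the rule (9 that fell, left; 12 that rose, right) in each library, on a log axis (red, mutant; blue, control; circles, replicate 1; triangles, replicate 2). Mt1, Mt2, Myoc and Itm2a show close replicates and wide gaps between genotypes, while Lifr rests on control 2 and Omd on mutant 2.

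Gene lists described the cells by role, in counts of genes that passed the adjusted p of 0.05 at any size, to be read against the 2.74% and 1.41% of all genes. Of 15 cartilage matrix genes tested, 8 rose and 1 fell, with a median log2 fold change of 0.51, while the median over all 6470 genes was -0.0034. Col2a1 itself rose by 0.87 (3402 and 4372 against 2746 and 1632 CPM, edgeR adjusted p = 0.0176), and it did not pass in DESeq2 (adjusted p = 0.334), where 2 genes of the list rose and 1 fell. Its fold change was 0.08 in cells under the limit of 50 per 10000 and 0.01 in those above it, given as a description because that split uses Col2a1, and 13.6% and 17.4% of the mutant cells lay above the limit against 6.80% and 6.06% of the control cells. With Col2a1 left out 7 rose and 1 fell, and in the cells with a Slurp1 count 1 rose and 1 fell. With the replicate number as a block 4 rose and 1 fell, Col2a1 again left out. The summed list, Col2a1 included, stood at 28509 and 30831 CPM in the mutants and 25267 and 23512.5 CPM in the controls. In the fibroblast reference, whose class was not tested, it stood at 8995 and 9434 against 4152 and 4968 CPM. Snorc, a cartilage membrane proteoglycan, rose by 0.81, Col9a3 by 0.89 and Col11a1 by 0.44, and in DESeq2 Snorc and Col9a3 did not pass (adjusted p = 0.0882 and 0.440). Col9a3 was 1.45 without control 1 and 0.50 without control 2, and Col2a1 was 1.28 and 0.55. Col11a1 was 0.14 in cells under the Col2a1 limit (edgeR adjusted p = 0.521) and -0.20 in those above it (adjusted p = 0.879), and Snorc and Col9a3 were 0.63 and 0.74 under the limit and 0.16 and -0.04 above it, where neither passed (adjusted p = 0.914 and 0.986). Vcan fell by 0.71 (540 and 523 against 868 and 920 CPM, adjusted p = 6.20e-04). It did not pass when thinned to 3000 UMIs (-0.27, edgeR adjusted p = 0.332) or in cells with no Slurp1 count (-0.51, adjusted p = 0.346). Acan was at -0.09 (adjusted p = 0.702).

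Of 11 superficial and lubricating genes tested that the rule did not use, 1 rose and 1 fell, and their median was -0.24. Prg4 was called at -0.46 (SE 0.107, edgeR adjusted p = 0.0314), but did not pass without control 1 (-0.30, adjusted p = 0.189), in cells with a Slurp1 count (-0.38, adjusted p = 0.156) or in cells under the Col2a1 limit (-0.33, adjusted p = 0.112). Thbs4 rose by 0.62 (352 and 343 against 228 and 238 CPM, adjusted p = 0.00225), and was 0.14 in cells with a Slurp1 count (adjusted p = 0.678) and -0.49 in cells above the Col2a1 limit (adjusted p = 0.799). The summed tendon and ligament genes, Thbs4 and Fmod among them, were also higher in both mutants. Of the 6 tested genes of that list 2 rose and 1 fell, Tnc, which encodes tenascin-C, by 0.86 (50.3 and 41.3 against 73.2 and 97.6 CPM, adjusted p = 0.0106), and Tnc was 0.29 without called doublets (adjusted p = 0.344). Clu was at -0.05 (adjusted p = 0.789) and Sod3 at -0.23 (adjusted p = 0.226). The rule genes Angptl7, Slurp1, Npy, Cilp and Cilp2 were at -0.21, 0.12, -0.47, -0.46 and 0.03, given as a description.

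Small leucine-rich proteoglycans, which space and stabilize collagen fibrils, gave 5 rises and 0 falls among 9 tested in edgeR's test, with a median of 0.45 (1 was lower at an unadjusted p under 0.05, and 3 rose and 0 fell in DESeq2). Lum, the gene of lumican, stood at 594 and 557 against 326 and 328 CPM and rose by 0.86 (edgeR adjusted p = 1.66e-04). Fmod rose by 0.65 (2102 and 1648 against 1179 and 1279 CPM), Ogn by 0.87 and Aspn by 0.45, and Omd was the remaining call. Aspn did not pass without control 2 (0.36) or without mutant 2 (0.34). Fmod was 0.49 in cells with a Slurp1 count (edgeR adjusted p = 0.0559). Beside these rises, the summed levels of the fibrocartilage list were 10852 and 10052 CPM in the mutants and 7441 and 8924 CPM in the controls, and those of the periosteum list 408 and 486 against 320 and 287 CPM, and these lists hold Fmod and Lum or Ogn and Aspn themselves. The part of such cells in the rises was not tested. Dcn was at -0.08 (adjusted p = 0.695). Of 11 fibrillar and other collagens 1 rose, Col16a1, by 0.84, and the median was 0.16. Without called doublets 3 of these collagens rose and 0 fell in edgeR's test. With all cells, 5 were higher and 1 lower at an unadjusted p under 0.05. Of 5 matrix proteases and inhibitors tested 0 passed in edgeR's test, where 1 was higher and 2 lower at an unadjusted p under 0.05, and 0 passed in DESeq2.

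Hypoxia and glycolysis genes gave 6 rises and 0 falls among 11 tested in edgeR's test, with a median of 0.44 (0 were lower at an unadjusted p under 0.05 or in DESeq2, and 5 rose in DESeq2). Bnip3, a mitochondrial protein gene induced by hypoxia, stood at 188 and 186 against 128 and 99.2 CPM and rose by 0.76 (edgeR adjusted p = 0.00269). Pfkl rose by 0.81, Ldha by 0.59, Pgk1 by 0.53, Eno1 by 0.42 and Aldoa by 0.35, which encode glycolytic enzymes. Without control 2 Pgk1, Eno1 and Aldoa did not pass, at 0.38, 0.36 and 0.31, and 3 genes of the list rose. Aldoa was also lost without control 1 and without mutant 1, at 0.39 and 0.31. Of 19 immediate early and stress genes 3 rose and 2 fell, with a median of -0.07, Hspa1a falling by 0.85 beside Hspa1b and Ier3, Nr4a1 and Ddit3 rising by 0.60, 0.54 and 0.73. At an unadjusted p under 0.05 in edgeR's test, 6 of them were higher and 7 lower. Nr4a1 did not pass without mutant 2 (0.34), nor Ddit3 without control 1 (0.57) or mutant 1 (0.48), and in DESeq2 1 gene of the list rose and 2 fell. Of 16 antioxidant genes the metallothioneins were the 2 that fell, 0 rose in edgeR's test and the median was 0.02. At an unadjusted p under 0.05, 1 was higher and 5 were lower, the metallothioneins among them, and 0 rose in DESeq2.

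Of 16 BMP and TGF-beta genes 3 rose, Tgfb2, Id1 (by 0.71) and Id2 (by 0.49), the latter being BMP-responsive regulators, while 0 fell in edgeR's test (5 were lower at an unadjusted p under 0.05, and 2 rose and 0 fell in DESeq2) and the median was 0.00. Without called doublets 2 genes of the list rose and 1 fell in edgeR's test. Id2 did not pass without control 2 (0.34), and Id1 did not pass in cells under the Col2a1 limit (0.36, edgeR adjusted p = 0.0730) or with at least 5 counts of Angptl7 and Slurp1 (0.35, adjusted p = 0.325). Of 3 Wnt modulators tested Frzb rose and so did Wif1, a secreted inhibitor, by 0.58, which was 0.32 and did not pass without control 1. Of 10 YAP1/TAZ targets 1 fell, Ccn2, a matricellular growth factor gene, by 0.42 (2401 and 2192 against 3230 and 3073 CPM, edgeR adjusted p = 0.0156), and the median was -0.12. Of 8 IGF and FGF genes Igfbp5 fell, by 0.50, and was -0.31 without mutant 1, where it did not pass (edgeR adjusted p = 0.0507). Of 15 transcription factors Sox9 rose, by 0.45 (526 and 594 against 471 and 374 CPM, adjusted p = 0.0383), and was 0.30 without control 2, where it did not pass. Sox9 also did not pass in DESeq2 (adjusted p = 0.0773), in cells with a Slurp1 count (0.42, edgeR adjusted p = 0.155), or in cells under (0.31, adjusted p = 0.151) or above (0.47, adjusted p = 0.654) the Col2a1 limit. Of 4 interferon and antigen presentation genes tested 0 passed in edgeR's test, where 1 was higher and 1 lower at an unadjusted p under 0.05, and 0 passed in DESeq2. Angptl1, an angiopoietin-like gene, was called at 0.80, and did not pass without control 2 (0.66) or without mutant 2 (0.51).

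Of 104 tested genes that were at least 4-fold higher in these cells than in the Col2a1-high class and were not in the rule, 4 rose (3.85%) and 15 fell (14.4%), with a median log2 fold change of -0.18, beside 2.74% and 1.41% of all genes. Of the 20 genes of largest fold 19 were tested, and 6 fell in edgeR's test. Nox4 fell by 0.60 (130 and 183 against 237 and 249 CPM, edgeR adjusted p = 0.0253), Galnt15 by 0.60, Bmpr1b by 0.56 and Shank2 by 0.52, beside Vcan and Igfbp5 above. In DESeq2 Bmpr1b and Shank2 did not pass (adjusted p = 0.110 and 0.225), while Nox4, Galnt15, Vcan and Igfbp5 did. Nox4 was -0.37 without mutant 1, and it did not pass in cells under the Col2a1 limit (-0.41, edgeR adjusted p = 0.134) or with a Slurp1 count (-0.53, adjusted p = 0.0579). Bmpr1b did not pass without mutant 1 (-0.33), nor Shank2 without control 1 (-0.40) or mutant 2 (-0.48). Tppp3, Htra4, Tnxb and Cd55 were at -0.17, -0.31, -0.30 and -0.24 and did not pass. These genes were picked from these data for their height over the Col2a1-high class in all 4 libraries, mutants included, at 50 CPM or more. The whole tested set holds lower genes too, so its shares are no like base for theirs. More of the mutant cells carried much Col2a1 (13.6% and 17.4% against 6.80% and 6.06%). The part of this in the falls was not tested.

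The effect of genotype differed from that in the other Col2a1-high barcodes for many genes. Over 7546 genes tested for the interaction, the log2 fold change was higher, that is more positive, in the Angptl7/Slurp1/Cilp cells for 305 (4.04%) and lower for 656 (8.69%), and without mutant 2 for 162 and 421. The same mutant and control libraries gave both classes, but depth and free RNA differed between them. In the order mutant 1, mutant 2, control 1 and control 2, median depth in the Col2a1-high class was 13276, 13562, 15149 and 15221.5 UMIs. In the Angptl7/Slurp1/Cilp cells it was 12107, 10645, 10383 and 10087.5. Free RNA was estimated at 1.13%, 1.20%, 2.67% and 2.60% in that class and 1.08%, 1.33%, 1.80% and 1.69% in the cells. After its subtraction the counts were 306 and 668. The part of depth was not tested. Of 17 cartilage matrix genes, Col2a1 left out because it chose the comparison class, it was higher for 9 and lower for 1. Of 11 superficial and lubricating genes that the rule did not use it was lower for 9 and higher for 1. Prg4, at 1439 and 1849 against 551 and 671 CPM in the Col2a1-high class, rose there by 1.52 (SE 0.122, adjusted p = 8.85e-06), and its interaction was -1.96 (SE 0.212, edgeR adjusted p = 2.79e-04). The Col2a1-high class itself moved with genotype, at 28.7% and 27.4% of kept barcodes in the mutants and 17.7% and 17.9% in the controls. Its median Col2a1 was 168 and 173 per 10000 in the mutants and 315 and 322 in the controls. The part of its mix of cells in the interactions was not tested.

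Ccn2 rose by 1.08 in the Col2a1-high class and had an interaction of -1.48 (SE 0.109, edgeR adjusted p = 4.01e-05). Of the 12 hypoxia and glycolysis genes 9 had a lower fold change in the Angptl7/Slurp1/Cilp cells, with Bnip3 at 0.76 against 2.49 (interaction -1.72, adjusted p = 4.88e-05) and Pgk1 at 0.53 against 1.65. Of 19 immediate early and stress genes 10 had a lower fold change and 1 a higher one. In the other direction stood Lum, which fell by 0.41 in the Col2a1-high class (interaction 1.28, adjusted p = 8.02e-05), Col11a1, which fell by 0.63 there (interaction 1.08) and whose own rise did not pass on either side of the Col2a1 limit, and Col16a1 (interaction 1.15). Of the 24 genes in the plot of both effects, 14 had opposite signs in the classes. These genes were picked for passing both in the cells and in the interaction, which favours opposite signs. The count therefore describes the plot only, with no share over all genes beside it.

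**Figure D5:**
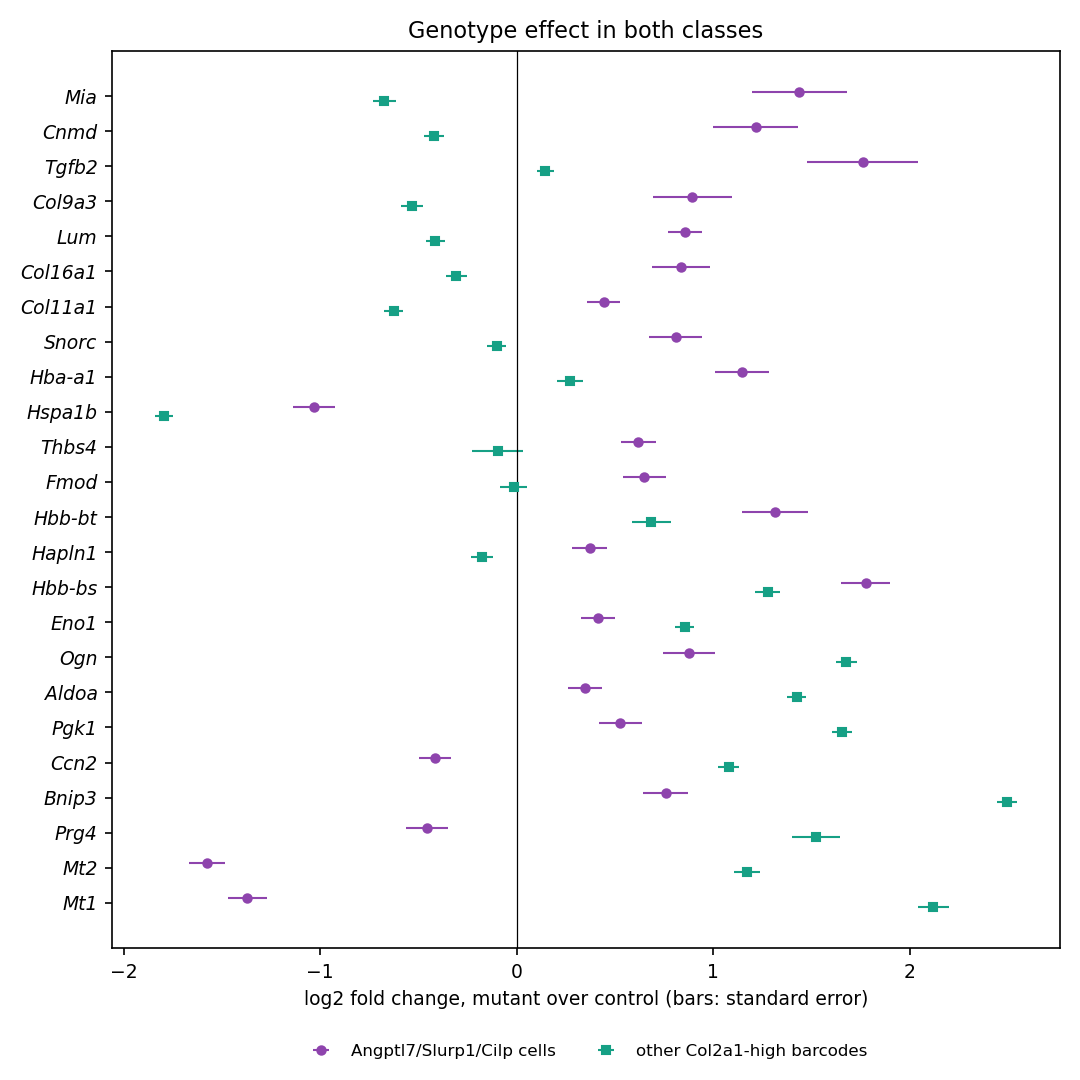
Log2 fold change of mutant over control, with SE as bars, in the Angptl7/Slurp1/Cilp cells (purple circles) and in the other Col2a1-high barcodes (green squares), for 24 genes of the lists or named above that passed both in the cells and in the interaction and that the rule did not use. The metallothioneins, Prg4 and Ccn2 lie left of 0 in the purple circles and right of it in the green squares, and Mia, Cnmd, Lum, Col9a3 and Col11a1 do the reverse.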

How the data were processed

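The authors trimmed reads with cutadapt 3.5 and counted UMIs with STARsolo 2.7.10a on GRCm39 (mm39), over exons and introns, sharing reads of several genes by expectation maximization. The deposited expected counts are unfiltered and not normalized, and 53703 features were listed. Kept barcodes had at least 1000 UMIs, at least 800 genes, under 15% mitochondrial and under 5% hemoglobin counts. EC reference cells had at least 3 counts of Cdh5.

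The cells and gene lists were chosen with earlier results of these data known. Counts were summed per library and class, rounded, and tested with edgeR 4.0.16 (TMM normalization, filterByExpr, counts in at least 20% of cells of either genotype). The interaction of class and genotype was fitted on 8 sums with the library as a block. Up to 12 called genes each way were named, with both mutants beyond both controls and at least 50 CPM in the higher group, leaving out unnamed models, ribosomal and mitochondrial genes, beside called genes of the lists. On simulated data of 11186 genes, 80% of 2-fold and 100% of 4-fold changes between genotypes were recovered with 5 false calls, and 70% and 99% of such interactions with 10. The simulation gave all genes a common spread between libraries (coefficient of variation 0.0717) and changed only genes of at least 20 expected counts. It applied no limit on the share of cells and no library effect shared by the classes. Recovery in the real data was not measured. Doublets were the barcodes of the highest Scrublet score (scanpy 1.11.5), 0.8% for each 1000 barcodes, free RNA was taken from empty droplets of 10 to 100 UMIs, and alternatives included DESeq2 1.42.0. Promoter sequences came from RefSeq (GRCm38.p6), and gene positions from GENCODE.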

Additional observations from a re-analysis of the deposited data

Results flagged for a closer look

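For the genes below the genotype effect differed between the Angptl7/Slurp1/Cilp cells and the other Col2a1-high barcodes by edgeR's interaction term, after adjustment over all 7546 genes tested. They had either passed at 2-fold in the cells, or passed there at any size and been tested in the other class too. The differences are the log2 fold change of mutant over control in the cells minus that in the other Col2a1-high barcodes, and the 4 libraries give both classes. The share and the Col2a1 level of the Col2a1-high barcodes moved with genotype, and the part of this in the differences was not tested.

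The difference was negative for Mt1 at -3.48, Tnfaip6 at -3.31, Mt2 at -2.74, Prg4 at -1.96, Ccn2 at -1.48, Col8a1 at -1.07 and the proteoglycan gene Ogn at -0.80. Of the hypoxia and glycolysis genes it was negative for Bnip3 at -1.72, Pgk1 at -1.11, Aldoa at -1.07 and Eno1 at -0.43.

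The difference was positive for the cartilage genes Mia at 2.13, Cnmd at 1.66, Col9a3 at 1.49, Col11a1 at 1.08, Snorc at 0.94 and Hapln1 at 0.56. It was also positive for Tgfb2 at 1.61, Lum at 1.28, Col16a1 at 1.15, Hspa1b at 0.77, Thbs4 at 0.71 and Fmod at 0.67. For the hemoglobin genes Hba-a1, Hbb-bt and Hbb-bs it was 0.89, 0.63 and 0.50, and the level of free RNA was estimated from these same genes, so their own level in the cells could not be set against it.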

How the results depend on the processing

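The share of Angptl7/Slurp1/Cilp cells among kept barcodes differed by 0.309 percentage points (mutant minus control) and by -0.143 when barcodes were thinned to 3000 UMIs. With at least 5 counts of Angptl7 and Slurp1 it differed by 0.0694 points, and the libraries of the genotypes overlapped (2.65% and 2.71% against 2.72% and 2.50%). The exact permutation test of 2 libraries against 2 cannot go below 0.33 for any share. Of 447 values of 24 genes called at 2-fold or more, 381 kept direction and still passed by adjusted p, whatever their size. Some of these lay under 2-fold, such as Ibsp at 0.87 and Col8a1 at -0.84 among cells under the Col2a1 limit. Among the 381, 24 came from a limit on complexity (log10 of genes over log10 of UMIs, at least 0.8). That limit removed none of the Angptl7/Slurp1/Cilp cells, so those values could not differ. Cases where a gene was not tested are not among the 447. A further 61 kept direction only, and 5 turned direction. Those 5 were Cnmd at -0.24, Mt1 at 1.48 and Mt2 at 0.30 among cells with at least 50 counts of Col2a1 per 10000, Lifr at 0.14 without called doublets, and Tnfaip6 at 1.45 among cells with no Slurp1 count. Of the smaller calls named, Thbs4, Aspn, Col11a1, Col9a3, Igfbp5, Bmpr1b and Galnt15 turned to -0.49, -0.31, -0.20, -0.04, 0.65, 0.95 and 0.56 among the cells with at least 50 counts of Col2a1 per 10000, where none of these passed in edgeR. Aspn and Wif1 turned to -0.04 and -0.12 among cells with no Slurp1 count, and Tnc to 0.29 without called doublets, and did not pass. When thinned to 3000 UMIs, Ibsp, Vcan, Id1, Sox9 and Col11a1 were at 0.39, -0.27, 0.33, 0.20 and 0.15, and Hapln1 turned to -0.02. None of these passed there (edgeR adjusted p from 0.0574 to 0.974), while Mt1, Mt2, Cxcl12, Lum and Fmod did. The cause was not tested.

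The 31 higher genes became 63 with filterByExpr alone and 145 with no filter on low counts, which tested more genes, 17 with at least 5 counts of Angptl7 and Slurp1, 6 among cells with at least 50 counts of Col2a1 per 10000, 6 when thinned, which tested 1956 genes, 10 among cells with no Slurp1 count, and 12 with DESeq2. The 12 lower genes became 29, 107, 1 among cells with at least 50 counts of Col2a1 per 10000, 6 among cells with no Slurp1 count, and 6 with DESeq2. Leaving out one library gave 30 to 55 higher genes (55 without control 1) and 12 to 21 lower genes (21 without control 1, and 20 without either mutant library). The interaction counts of 305 and 656 became 162 to 257 and 421 to 572, with the smallest without mutant 2. The splits by a Slurp1 count and the subtraction of free RNA were chosen after seeing the data. The values without doublets and at equal depth for the share of cells with Col2a1 at 50 or more per 10000 were not planned either.

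With the replicate number as a block 33 genes were higher and 14 lower, and all 43 genes called without the block were shared. Among genes called at a smaller size, Prg4 did not pass with the block (adjusted p = 0.117), nor did Ccn2, Sox9, Comp, Aspn, Aldoa, Angptl1, Ddit3, Hapln1, Matn2, Lepr and Fn1, at adjusted p from 0.0543 to 0.180. The labels tie no mutant to a control, and the correlation of replicate differences over 6470 genes was 0.0027 (across genes, which are not independent). It rests only on the difference between the replicates of each genotype, so it cannot tell whether the numbers pair mice.

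With 2 libraries a genotype, 169 to 206 cells a library, genes counted in fewer cells than the 20% limit were not tested.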
